A study of Saccharomyces cerevisiae with 18 samples.

Results

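RNA levels in budding yeast (Saccharomyces cerevisiae) grown on ethanol were compared between arrays with a high and arrays with an absent FAR1 signal, using 6 of the 18 arrays of a series on FAR1 dosage. The 6 were the arrays titled far1Δ or FAR1OE with ethanol as carbon source. An array was called FAR1 high when the deposited intensity of the FAR1 (YJL157C) probe set was above 500, and FAR1 absent when it was below 10. This gave 3 arrays on each side. The high arrays were titled FAR1OE replicates 1 and 2 and far1Δ replicate 3, and the absent arrays were titled far1Δ replicates 1 and 2 and FAR1OE replicate 3. Replicate 3 of each labelled group therefore changed sides, and the groups are named below by their FAR1 signal and not by a genotype.

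Per the labels and the design text, every strain was a MATa derivative of W303-1A with the alleles ade2-1 and his3-11, leu2-3 joined with leu2-112, trp1-1, and ura3-1 and can1-100. The far1Δ strain carried a far1::his3 deletion, and the FAR1OE strain carried the plasmid pTet-FAR1-15Myc, so that its additional FAR1 came from a plasmid with, by its name, a Tet promoter and a Myc tag. The labels list no far1 deletion for the FAR1OE strain. Cultures were collected as independent triplicates in exponential growth in synthetic complete medium, and RNA was hybridised to Affymetrix yeast S98 arrays, on which a probe set is a group of short oligonucleotides for 1 transcript. The 3 wild type (WT) ethanol arrays are given beside them, and the 6 glucose arrays of the same strains as a second carbon source.

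Far1 is an inhibitor of the G1 cyclin-dependent kinase Cln–Cdc28, known for arresting the cell cycle when a haploid cell senses mating pheromone. It is also an adaptor that brings Cdc24, the exchange factor of the GTPase Cdc42, to the site of polarised growth. Cdc42 in turn acts through kinases and effectors such as Gic1 and Gic2 on the actin cytoskeleton and on the mating and filamentation pathways.

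FAR1 itself chose the arrays, so its values are a description without a test. Its deposited intensity was 2554 on FAR1OE replicate 1, 2722 on FAR1OE replicate 2 and 2596 on the array titled far1Δ replicate 3. It was 4.8 on far1Δ replicate 1, 5.3 on far1Δ replicate 2 and 3.3 on the array titled FAR1OE replicate 3. The 3 WT ethanol arrays, at 29.3, 17.9 and 25.5, lay between the groups, and none of the 6 arrays lay near either threshold. In glucose the titles and the FAR1 signal pointed the same way, with 4.9, 7.0 and 4.1 on the far1Δ arrays and 1020, 966 and 557 on the FAR1OE arrays.

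The 6 arrays had median deposited intensities of 12.6 to 23.8. Across probe sets, r was 0.955 to 0.973 among the high arrays, 0.966 to 0.979 among the absent arrays and 0.946 to 0.977 between the groups. No pair of the 6 shared more than 3.0% identical values. Of 9 control measures (RNA integrity ratios, ribosomal RNA and spike-in signals, array level), the smallest two-sided exact permutation p between high and absent was 0.4 (adjusted p = 0.9), where 3 against 3 arrays allow no p below 0.1. The WT ethanol arrays stood apart from all 6 on 2 of these measures. Their mean log2 antisense spike-in signal was 2.76 to 2.98 against 0.85 to 1.41, and their log2 BioDn 5′ to 3′ ratio was −2.32 to −2.11 against −0.90 to −0.80. The part of this in any distance from WT given below was not tested. The labels give MATa, and the markers of both mating types were set against it. None of the 7 a cell genes passed the filter on low values. On the 6 arrays they read from 0.1 to 0.5 for ASG7 and 0.6 to 2.1 for STE2, the alpha factor receptor gene, up to 0.6 to 9.1 for MFA1 and 1.0 to 11.4 for MFA2, the a-factor genes. Of the alpha cell genes, MF(ALPHA)1, which codes for alpha factor, read 446 to 820, and STE3, the a-factor receptor gene, 38.4 to 87.5. SAG1 read 8.2 to 20.5, and the other alpha factor gene, MF(ALPHA)2, only 2.4 to 5.1, as low as the a cell genes. MF(ALPHA)1 and STE3 were thus the members well above the a cell genes in ethanol. On the 6 far1Δ and FAR1OE glucose arrays MF(ALPHA)2 read 546.5 to 1010.7 and SAG1 57.4 to 126.7. The a cell genes stayed low there, with STE2 at 0.1 to 1.8 and MFA2, the highest, at 4.0 to 10.6. These signals stood against the labelled MATa, and the mating type was not tested further.

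CDC42 was 7.81-fold higher in the high than in the absent arrays, the sterol glucosyltransferase gene ATG26 5.57-fold, and the exchange factor gene YEL1 4.87-fold. In pyrimidine metabolism URA3, URA2, URA1 and the uridine permease gene FUI1 rose and the salvage gene FUR1 fell. The glycolytic genes ENO2, TDH1, PGK1, CDC19 and TPI1 fell. None of 80 tested cytosolic ribosomal protein genes, 123 ribosome biogenesis genes or 37 genes of RNA polymerases I and III passed the test. Over all genes 1.95% passed, so lists of this size would hold few calls at that share. The median log2 difference of the 80 ribosomal protein genes was −0.22, beside −0.03 for all genes.

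Of 5202 probe sets for single genes (4861 genes), 105 passed limma at an adjusted p of 0.05, which is 2.02% of those tested, with 66 higher (1.27%) and 39 lower (0.75%). These 105 stood for 101 genes. The change was at least 2-fold for 38 of the higher and 19 of the lower probe sets. The high and absent arrays did not overlap, after normalization, for 1026 probe sets (19.7%), and for all 105 that passed. At an unadjusted p below 0.05 there were 802 probe sets. Because the groups were set by a measured signal, these p-values describe groups defined that way. Without the array titled far1Δ replicate 2, 49 probe sets passed, all of them among the 105.

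Beside FAR1, which set the groups, the marker genes were CDC42 and URA3. CDC42 (YLR229C) read 1466, 1778 and 1087 on the high arrays and 175, 311 and 213 on the absent arrays. The WT ethanol arrays, at 206, 194 and 278, lay with the absent arrays, so the CDC42 signal was high where FAR1 was high. The log2 difference, high minus absent, was 2.96 ± 0.12 (SE, n = 3 arrays each; adjusted p = 1.15e-07 in limma). Leaving out each array in turn gave 2.86 to 3.05.

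**Figure D1:**
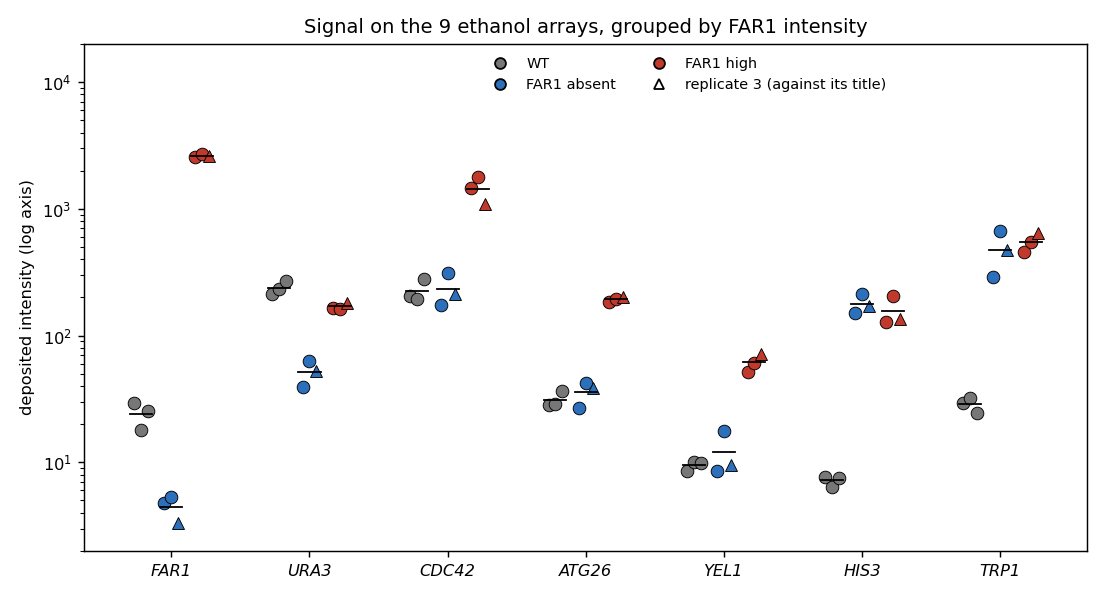
Deposited intensity (log axis) of 7 genes on each of the 9 ethanol arrays, in WT, FAR1-absent and FAR1-high arrays, with a bar at the mean of the 3 arrays and triangles for the replicate 3 arrays that stood against their titles. CDC42 is at 1087 to 1778 on the high arrays and 175 to 311 on the absent arrays, and HIS3 and TRP1 do not separate them.

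The Cdc42 polarity module held 43 tested genes, of which 3 were higher and 1 lower, beside 1.25% higher and 0.699% lower (1.95% in all) among the 4861 genes tested, at 1 probe set each. GIC2, a Cdc42 effector gene, read 85.0, 85.8 and 90.9 on the high arrays and 32.4, 49.9 and 34.5 on the absent arrays. It rose by 1.08 ± 0.14 on the log2 scale (adjusted p = 0.00178 in limma). The groups did not overlap, which after normalization held for every probe set that passed. Its paralog GIC1 read 12.3, 12.6 and 14.5 against 15.2, 25.1 and 20.3, a log2 difference of −0.69 (adjusted p = 0.0421). The GIC1 call was lost without any 1 of the 6 arrays (adjusted p = 0.0699 to 0.160). MSB2, which codes for a mucin at the head of the filamentation pathway, rose by 0.73 (adjusted p = 0.0339), a call kept only without FAR1OE replicate 2 (adjusted p = 0.0182, and up to 0.115 without another). The median log2 difference of the module was 0.06, beside −0.03 for all genes.

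The pheromone pathway, which links the receptor to the MAP kinase Fus3 and the factor Ste12, had 3 of 20 tested components higher and 0 lower. Over all genes tested 1.25% were higher and 0.699% lower. The 3 were CDC42, counted in the polarity module too, FUS3 and TEC1. TEC1, a partner of Ste12 at filamentation genes, read 124, 156 and 153 on the high arrays and 55.2, 99.0 and 59.0 on the absent arrays, a rise of 1.03 ± 0.13 (adjusted p = 0.00114 in limma). FUS3 read 82.6, 95.9 and 82.0 against 35.9, 65.5 and 43.0, and rose by 0.77 ± 0.14 (adjusted p = 0.0140), which became 0.0668 at most without far1Δ replicate 2 or FAR1OE replicate 3. A second FUS3 probe set rose by 0.74 (adjusted p = 0.0421). Among pheromone-induced targets 3 of 16 tested genes were higher and 0 lower. They were FUS3 and TEC1, already counted among the components, and PRM5. PRM5, a pheromone-regulated membrane protein gene that is also induced by cell wall stress, read 125, 177 and 137 on the high arrays and 35.4, 72.6 and 36.3 on the absent arrays. Its log2 rise was 1.63 ± 0.18 (adjusted p = 5.81e-04). The medians of the pheromone lists were 0.19 for components and 0.26 for targets.

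In the cell wall and integrity list, 4 of 37 tested genes were higher and 0 lower, beside 1.25% and 0.699% of all genes. Of the 37 differences 31 were positive, beside 2180 of 4861 over all genes, and the median was 0.26. PIR3, a covalently linked wall protein gene, read 337, 554 and 545 on the high arrays and 165, 276 and 197 on the absent arrays. It rose by 1.14 ± 0.19 (adjusted p = 0.00783 in limma) and passed without each array in turn. NCW2, a wall protein gene, rose by 0.71 ± 0.13 (adjusted p = 0.0133), and its call was lost without far1Δ replicate 1 or 2 (up to 0.0658). WSC2, a wall stress sensor gene, and YPS3, a surface protease gene, rose by 0.67 and 0.98 (adjusted p = 0.0320 and 0.0421). WSC2 passed again only without FAR1OE replicate 1 or 2, and YPS3 only without FAR1OE replicate 3, with adjusted p up to 0.123 and 0.144 without another array.

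Of 18 tested genes of pyrimidine synthesis and salvage, 4 were higher in the high arrays and 1 was lower. Over all genes tested the shares were 1.25% and 0.699%. URA2, the gene of the first committed steps of the pathway, read 426, 564 and 523 on the high arrays and 124, 277 and 215 on the absent arrays, and rose by 1.34 ± 0.16 (adjusted p = 8.99e-04 in limma). URA1, for dihydroorotate dehydrogenase, read 354, 321 and 379 against 107, 184 and 146, and rose by 1.24 ± 0.15 (adjusted p = 8.34e-04). The WT ethanol arrays read 303 to 407 for URA2 and 206 to 344 for URA1 and so lay nearer to the high arrays.

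URA3 (YEL021W), for orotidine phosphate decarboxylase, read 164, 163 and 182 on the high arrays and 39.6, 63.0 and 52.7 on the absent arrays. The groups did not overlap, which after normalization held for every probe set that passed. The WT ethanol arrays, at 211, 231 and 271, were above both groups. The log2 rise was 1.73 ± 0.14 (adjusted p = 6.35e-05 in limma), and 1.65 to 1.83 without 1 array. A URA3 control probe set on the same arrays, which entered no test, read 222, 198 and 219.7 on the high arrays and 71.2, 94.1 and 60.5 on the absent arrays.

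FUI1, the uridine permease gene, read 139, 251 and 168 on the high arrays and 51.3, 83.2 and 52.3 on the absent arrays, a rise of 1.61 ± 0.19 (adjusted p = 8.42e-04 in limma). FUR1, for uracil phosphoribosyltransferase of the salvage branch, moved the other way. It read 88.5, 88.7 and 76.0 on the high arrays and 231, 295 and 179 on the absent arrays, a log2 difference of −1.72 ± 0.18 (adjusted p = 4.07e-04). For FUI1 and FUR1 too the WT ethanol arrays, at 110 to 173 and 66.0 to 95.9, lay with the high arrays. Over the 18 genes 12 differences were positive, beside 2180 of 4861 over all genes. The median was 0.05, with −0.04 in labelled replicates 1 and 2 and 0.31 in the replicate 3 pair described below, and the list medians of the high and absent arrays overlapped.

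**Figure D2:**
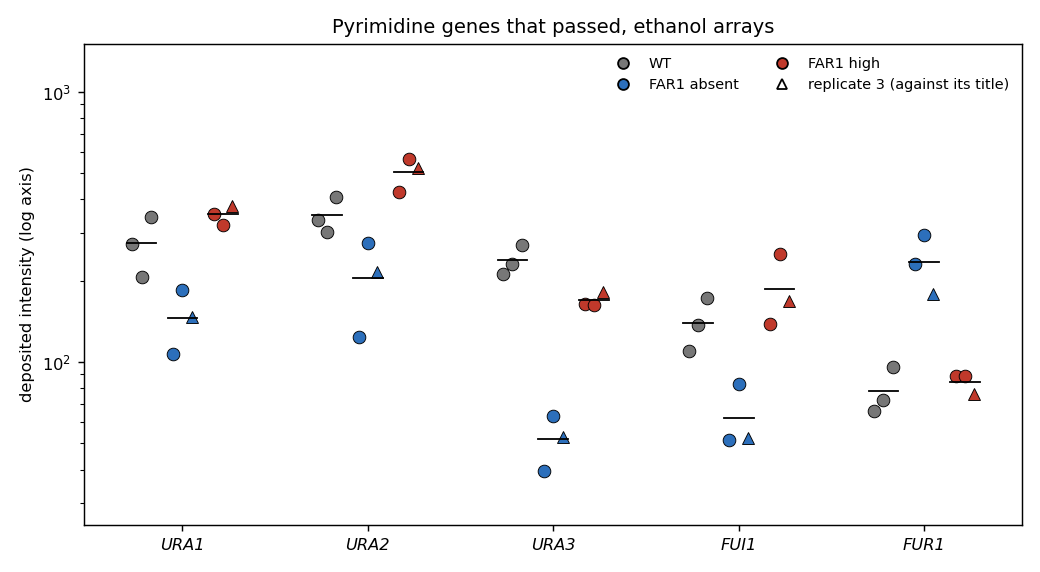
Deposited intensity (log axis) of the 5 pyrimidine genes that passed, on each of the 9 ethanol arrays, with a bar at the mean of the 3 arrays of each kind. FUR1 is at 76.0 to 88.7 on the high arrays and 179 to 295 on the absent arrays, and the WT arrays lie near the high arrays for URA1, URA2, FUI1 and FUR1.

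The signals of the loci that are mutant in the labelled genotype are given as a description, because an RNA level does not read the allele. HIS3, of histidine synthesis, read 127, 205 and 136 on the high arrays and 150.0, 214 and 171 on the absent arrays, against 6.4 to 7.7 on the WT ethanol arrays. TRP1, of tryptophan synthesis, read 461 to 643 on the high, 291 to 663 on the absent and 24.3 to 31.9 on the WT arrays. Both therefore set the 6 arrays apart from WT and did not pass between high and absent (log2 −0.36 and 0.26, adjusted p = 0.357 and 0.666 in limma). CAN1, the arginine permease gene, read 37.6, 50.6 and 64.6 on the high arrays and 15.1, 24.6 and 19.5 on the absent arrays, and rose by 1.24 ± 0.18 (adjusted p = 0.00374). LEU2 read 68.6, 27.2 and 85.3 on the high arrays and 124, 154 and 41.5 on the absent arrays (log2 −0.95, adjusted p = 0.399). ADE2 had a log2 difference of −0.04.

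The other large rises included the following genes. MEP2, an ammonium permease gene, read 201, 339 and 284 on the high arrays and 67.0, 96.3 and 83.5 on the absent arrays, and rose by 1.76 ± 0.19 (adjusted p = 5.81e-04 in limma). GPR1, the gene of a G protein-coupled receptor for glucose, read 136, 177 and 182 against 37.4, 86.7 and 60.1, and rose by 1.49 ± 0.14 (adjusted p = 3.08e-04). GDH3, of glutamate synthesis from ammonia, read 679, 1018 and 779 against 305, 433 and 301, and rose by 1.35 ± 0.16 (adjusted p = 8.68e-04). In these 3 genes the lowest high array lay above the highest absent array. A lack of overlap after normalization was a condition for naming them, so it adds no evidence.

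ATG26 read 184, 195 and 202 on the high arrays and 27.0, 42.6 and 38.7 on the absent arrays, with 28.2 to 36.4 in WT. Its rise of 2.48 ± 0.14 (adjusted p = 3.13e-06 in limma) came second to CDC42 by size. YEL1, whose product activates the GTPase Arf3, read 51.6, 61.3 and 71.2 against 8.5, 17.8 and 9.6, and rose by 2.28 ± 0.17 (adjusted p = 4.64e-05). The neighbouring gene SKT5, which activates chitin synthase III, also passed, with a rise of 1.28 ± 0.25 (adjusted p = 0.0210). It was named after its value was seen. MRX3, a gene for a mitochondrial protein, rose by 2.13 ± 0.22, and GPM3, a homolog of phosphoglycerate mutase genes, by 2.00 ± 0.22 (adjusted p = 4.07e-04 and 6.04e-04).

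The remaining rises among the 15 largest were in SSA3, an Hsp70 gene (1.78), DPI8 (1.71), YOR012W (1.54) and the cullin gene RTT101 (1.39). SSA3 and DPI8 lost their call without far1Δ replicate 2 (adjusted p = 0.0534 and 0.0602 in limma). RTT101 read 50.3 to 69.2 on the high arrays and 14.7 to 26.0 on the absent arrays. For 59 of the 66 higher probe sets the mean of the WT ethanol arrays lay nearer to the absent arrays, and the 7 exceptions included URA1, URA2, URA3 and FUI1. How often this held over all tested probe sets was not counted, so the count does not set the called probe sets apart.

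The largest falls were led by genes of low intensity on the high arrays. NNK1, a protein kinase gene, read 10.1, 6.4 and 8.6 on the high arrays and 24.1, 46.4 and 29.2 on the absent arrays, a log2 difference of −1.97 ± 0.21 (adjusted p = 5.41e-04 in limma). BIO5, a transporter gene of biotin synthesis, read 5.0, 4.7 and 6.8 against 16.7, 36.4 and 18.1 (−1.95 ± 0.20, adjusted p = 4.07e-04). WT read 5.1 to 7.0 for BIO5, so the absent arrays stood above WT there. SPL2, a regulator gene of phosphate transport, had the largest fall (−2.18 ± 0.40, adjusted p = 0.0140), which was lost without far1Δ replicate 2 or 3 (up to 0.0866).

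The aquaporin gene AQY2 and its neighbour YLL053C fell together, by 1.25 and 1.32 on the log2 scale. YLL053C read 16.9 to 22.3 on the high arrays and 36.7 to 58.3 on the absent arrays. FAT3, of fatty acid uptake, had a log2 difference of −1.19 ± 0.13 (adjusted p = 6.49e-04 in limma), LYS20, the homocitrate synthase gene, of −1.20, and NRG2, a repressor gene, of −1.12. YDR034C-A, with 7 probe sets on the array, had differences of −1.17 and −1.09 in those that passed (adjusted p = 0.00629 and 0.0416 in limma). The falls of SIP18, ICS2, AHP1 and SNR44, at −1.33 to −1.23, each depended on 4 of the 6 arrays. Without far1Δ replicate 2 all 4 lost their call, and so they did without 3 other arrays each (highest adjusted p = 0.117, 0.129, 0.0978 and 0.0771). A second ICS2 probe set, not followed in this way, had a log2 difference of −1.10 (adjusted p = 0.0128 in limma). For 32 of the 39 lower probe sets the WT mean lay nearer to the absent arrays, again without a count over all tested probe sets.

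Of 22 tested glycolysis and fermentation genes 5 were lower in the high arrays and 0 higher, beside 0.699% and 1.25% of all genes. Of the 22 differences 6 were positive, beside 2180 of 4861 over all genes, and the median log2 difference was −0.26. Relative to the WT ethanol mean the list median was −0.26, −0.34 and 0.09 on the high arrays and 0.05, −0.02 and 0.01 on the absent arrays, so the groups overlapped and the array titled far1Δ replicate 3 stood highest. ENO2, for enolase, read 292, 272 and 323 on the high arrays and 681, 1355 and 862 on the absent arrays, with 687 to 1200 in WT, a log2 difference of −1.84 ± 0.17 (adjusted p = 3.07e-04 in limma). TDH1, for glyceraldehyde phosphate dehydrogenase, read 101, 146 and 105 against 154, 296 and 218 (−1.11 ± 0.17, adjusted p = 0.00516). ENO2 and TDH1 have near-identical paralogs whose transcripts the probe sets may share. PGK1, CDC19 and TPI1, for phosphoglycerate kinase, pyruvate kinase and triose phosphate isomerase, differed by −0.67, −0.57 and −0.52 (adjusted p = 0.00374, 0.0160 and 0.00783). CDC19 lost its call without far1Δ replicate 2 or FAR1OE replicate 3 (up to 0.0846).

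On the deposited intensities without normalization 1 of the 22 glycolytic genes, ENO2, passed, and the median was −0.27. The median log2 difference of all probe sets was 0.08 on that scale and −0.03 after normalization, a shift that applies to every list.

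In the opposing pathway, 3 of 23 tested genes of gluconeogenesis, the glyoxylate cycle and ethanol use were higher and 0 lower. Over all genes tested 1.25% were higher and 0.699% lower. SIP4, the gene of an activator of gluconeogenic genes, read 119, 131 and 166 on the high arrays and 52.4, 87.7 and 77.7 on the absent arrays (0.91 ± 0.18, adjusted p = 0.0217 in limma). MDH2, for cytosolic malate dehydrogenase, and PCK1, for phosphoenolpyruvate carboxykinase, rose by 0.52 and 0.36 (adjusted p = 0.0246 and 0.0462). SIP4 and MDH2 lost their call without far1Δ replicate 1, 2 or 3 (up to 0.117 for both) and PCK1 without any of the 6 arrays (0.0613 to 0.154). The median of the list was 0.15 and turned to −0.04 with centred array medians. Of 37 respiratory chain genes 1 fell, NDE2, an NADH dehydrogenase gene (−0.77, adjusted p = 0.00656). None of 20 tricarboxylic acid cycle genes passed, where CIT1, the citrate synthase gene, came nearest (0.52, adjusted p = 0.0511).

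Start, the commitment point of the cell cycle that Far1 acts on, had 1 of 19 tested regulators higher and 0 lower. Over all genes tested 1.25% were higher and 0.699% lower. CLN3, the G1 cyclin gene upstream of Start, read 169, 162 and 240.3 on the high arrays and 77.9, 110.2 and 98.5 on the absent arrays, with 128 to 207 in WT. Its log2 rise of 0.94 ± 0.19 (adjusted p = 0.0278 in limma) passed again without FAR1OE replicate 2 and was lost without any other of the 6 arrays (up to 0.139). CLN1, CLN2, CDC28 and SIC1 had differences of −0.01, 0.16, 0.07 and −0.21 (adjusted p = 0.991, 0.609, 0.862 and 0.502). None of 35 G1/S targets for DNA replication or 21 G2/M genes passed, beside 1.95% of all genes. HTB2, a histone H2B gene, fell by 0.87 (adjusted p = 0.0209), a call kept only without FAR1OE replicate 1 (0.00128, and up to 0.0888 without another array).

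SFP1, a regulator of ribosome synthesis, read 32.9, 30.9 and 42.1 on the high arrays and 24.7, 45.4 and 22.3 on the absent arrays (0.14, adjusted p = 0.762 in limma). Cytosolic ribosomal protein genes had a median of −0.22, with 10 of 80 differences positive, beside 2180 of 4861 over all genes. The nearest to the threshold was RPS13 (−0.42, adjusted p = 0.0899). Their median was −0.26 on the deposited scale and −0.37 with centred medians. For the 71 tested genes of mitochondrial ribosomal proteins the median was −0.23, with 4 differences positive and 1 call, RML2, which was positive (0.69, adjusted p = 0.0334, kept only without FAR1OE replicate 2 and up to 0.112 without another array). Ribosome biogenesis genes had a median of −0.07, and of 0.05 on the deposited scale.

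The other lists held few calls, beside 1.25% higher and 0.699% lower among all genes. Of 48 Gcn4 amino acid genes 1 was higher, LYS9 (0.92), and 2 were lower, LYS20 and SNO1 (−1.20 and −0.91). LYS9 passed again only without FAR1OE replicate 1, and SNO1 only without FAR1OE replicate 2 or 3 (adjusted p up to 0.133 and 0.112 without another array). Of 18 phosphate genes SPL2 and PHO86 were lower, of 30 Msn2/Msn4 stress genes SPI1 was higher (1.06), and of 6 tested sporulation genes RIM4 was higher (0.66). PHO86 kept its call only without far1Δ replicate 3, SPI1 without far1Δ replicate 3 or FAR1OE replicate 3, and RIM4 lost it without any 1 of the 6 (adjusted p up to 0.137, 0.0995 and 0.171 in limma). Storage carbohydrate genes had a median of 0.16 and no call, with NTH1, a trehalase gene, nearest (0.71, adjusted p = 0.0541). None of the tested fatty acid oxidation, proteasome, purine, iron, ergosterol, hexose transporter or methionine genes passed.

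**Figure D3:**
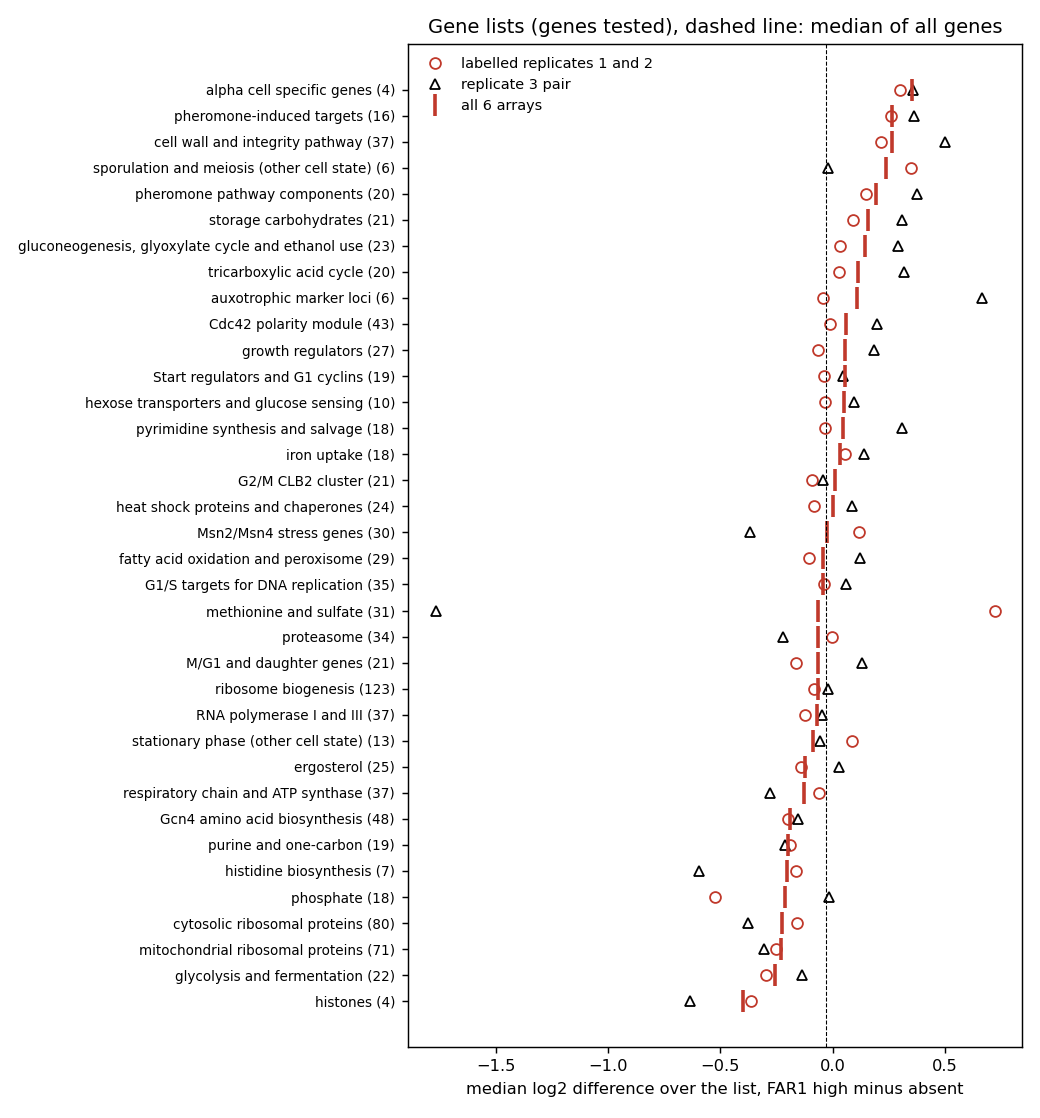
Median log2 difference, FAR1 high minus absent, of each gene list (number of genes tested in brackets) over all 6 arrays (upright marks), in labelled replicates 1 and 2 (circles) and in the replicate 3 pair turned by FAR1 signal (triangles), with a dashed line at the median of all genes, −0.03. The methionine and sulfate list stands at 0.72 in replicates 1 and 2 and at −1.77 in the pair, while the glycolysis list is negative in all 3.

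Methionine and sulfate genes differed between arrays without following FAR1. Relative to the WT ethanol mean, the median of the 31 genes was 0.17, 1.74 and 0.10 on the high arrays, and 0.29, 0.26 and 1.78 on the absent arrays. The raised arrays were those titled FAR1OE replicates 2 and 3, 1 on each side of the comparison. The deviations of these 2 arrays from their group means correlated at r = 0.436 across probe sets, above the other 8 pairings of a high with an absent array (−0.380 to 0.249).

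Labelled replicates 1 and 2 were also compared alone. Their groups follow the titles, but replicate 3 was left out because its FAR1 signal opposed its title, so the choice of arrays still used that signal. In this comparison of 2 against 2 arrays 61 of 5202 probe sets passed (1.17%), 40 higher (0.769%) and 21 lower (0.404%), and 53 of the 61 were among the 105. CDC42 differed by 3.04 (adjusted p = 4.85e-06 in limma), ATG26 by 2.53 (1.09e-04), URA3 by 1.72 (0.00152), URA1 by 1.21 (0.0100), URA2 by 1.36 (0.00720), FUI1 by 1.58 (0.0127) and FUR1 by −1.78 (0.00270). All 5 glycolytic genes but TDH1 (adjusted p = 0.0563) passed. CLN3 (0.0827), FUS3 (0.0588), PIR3 (0.0563), HTB2 (0.137) and the 3 gluconeogenesis genes (0.0551 to 0.0862) did not. The count ranged from 12 without far1Δ replicate 1 and 19 without FAR1OE replicate 2 to 142 without FAR1OE replicate 1.

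The replicate 3 arrays took no part in that comparison and give the same measure in other cultures, without a test. The array titled far1Δ replicate 3 minus the array titled FAR1OE replicate 3 had the sign of replicates 1 and 2 for 57 of the 61 probe sets (93.4%), against 2920 of all 5202 (56.1%). Of the 40 higher probe sets 39 were higher in the pair, with a median log2 difference of 1.13 in the pair and 1.34 in replicates 1 and 2. Of the 21 lower ones 18 were lower, with medians of −0.53 and −0.88. The pair difference was 2.81 for CDC42, 2.37 for ATG26, 1.75 for URA3 and −1.61 for both FUR1 and ENO2. The 4 of opposite sign were YOR192C-C, BAT1, OLE1 and ACC1. On the deposited scale 23 of 36 had the same sign (63.9%, against 56.3% of all), and MET3, MET10, MET14, SUL1, SUL2 and LEU2 were among the 13 that did not.

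**Figure D4:**
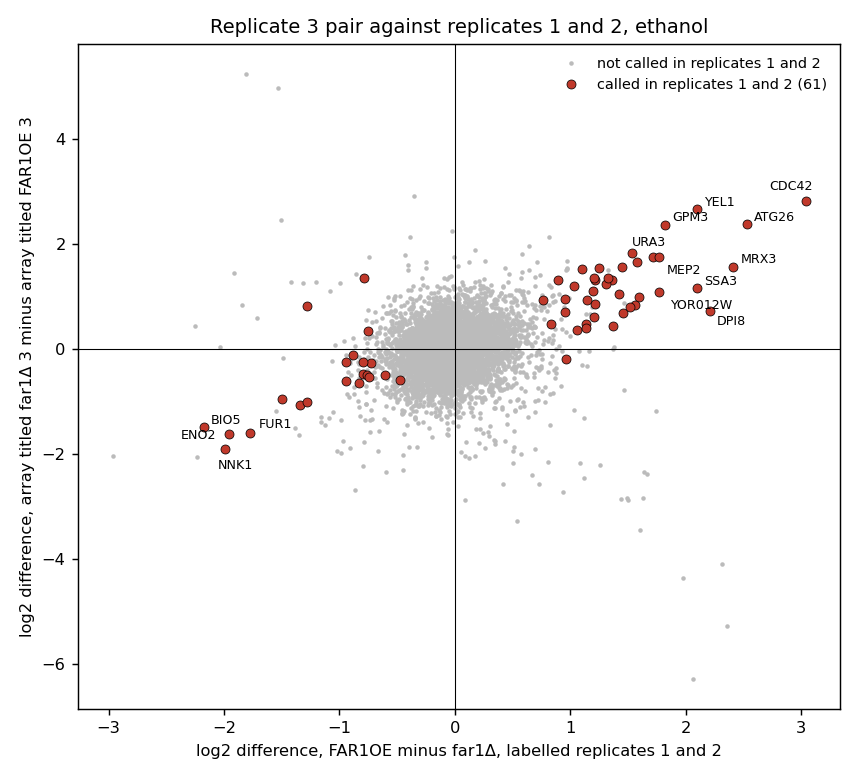
Log2 difference of each tested probe set in labelled replicates 1 and 2 (FAR1OE minus far1Δ, x axis) against the single pair of replicate 3 arrays (array titled far1Δ minus array titled FAR1OE, y axis), with the 61 probe sets called in replicates 1 and 2 in red. Of these, 57 lie in the quadrants of equal sign.

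With the 3 arrays of each title kept together, 0 of 5202 probe sets passed in limma (0.0%) and 315 had an unadjusted p below 0.05. On the deposited scale 26 passed. Without FAR1OE replicate 1 there were 40 calls, and without far1Δ replicate 2 there were 2. Of the 58 named probe sets that passed between high and absent, 55 kept their direction and lost their call under the titles, and AHP1, NRG2 and WSC2 changed sign.

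The glucose cultures gave the same strains on a second carbon source, grouped by title. FAR1OE minus far1Δ in glucose had 338 calls (6.5%), 192 higher (3.69%) and 146 lower (2.81%). FAR1OE glucose replicates 1 and 3 had log2 ratios of the 3′ to the 5′ actin probe set of 8.06 and 8.87, against 0.32 to 1.04 on the 6 ethanol arrays, and without them 9 probe sets passed. The part of that RNA integrity difference in the glucose calls was not tested further. Without FAR1OE glucose replicate 2 there were 829 calls, and without any other of the 6 glucose arrays there were 23 to 82.

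Of the 105 ethanol calls, 10 were also called in glucose, where 338 of all 5202 probe sets passed (6.5%). The median log2 difference of the 66 higher probe sets was 1.08 in ethanol and 0.14 in glucose, and of the 39 lower ones −0.93 and −0.08. The glucose median of all probe sets was 0.08. The sign was the same in glucose for 40 of the 66 and 22 of the 39. The share of equal sign over all probe sets was not counted, so these counts are a description only. The 66 and the 39 were chosen by their ethanol difference, so a smaller difference elsewhere follows in part from that choice. The FAR1 signal of the FAR1OE arrays was also lower in glucose, at 556.9 to 1019.5, than on the high arrays in ethanol. There were 10 probe sets called in both carbon sources. Of them FUR1, URA3, IZH1 and ALD2 had the same direction, which is 3.81% of the ethanol and 1.18% of the glucose calls. TDH1, CLN3, a second probe set of FUS3, YAR009C, GPR1 and SRL1 had opposite directions. URA3 differed by 0.83 ± 0.23 in glucose (adjusted p = 0.0415 in limma) and FUR1 by −0.70 ± 0.16 (adjusted p = 0.0269). The untested URA3 control probe set overlapped there. It read 234.0, 446.6 and 211.9 on the FAR1OE and 142.8, 242.3 and 244.0 on the far1Δ glucose arrays. The glucose calls of equal direction also used FAR1OE glucose replicates 1 and 3. CLN3 read 0.2 on FAR1OE glucose replicates 1 and 3, the arrays without actin 5′ signal, and 194 on replicate 2. On replicates 1, 2 and 3 in turn, the second FUS3 probe set read 0.1, 35.9 and 0.1, and YAR009C 15.7, 553.7 and 7.4. SRL1 read 192.3, 433.3 and 194.2, GPR1 27.8, 49.6 and 27.2, and TDH1 149.2, 164.5 and 170.3. All of these but TDH1 were thus lowest on the arrays without actin 5′ signal. The part of RNA integrity in the glucose calls of either direction was not tested.

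The difference between the ethanol and the glucose contrast passed for 137 probe sets (2.63%), 42 higher in ethanol (0.807%) and 95 lower (1.83%). CDC42 read 232, 319 and 250.2 on the FAR1OE glucose arrays and 214, 351 and 217 on the far1Δ glucose arrays, which overlap, and its glucose difference was 0.12 (adjusted p = 0.547 in limma). The difference of the contrasts was 2.84 ± 0.16 for CDC42 (adjusted p = 3.40e-08), 2.13 for ATG26 (4.07e-05), 2.04 for GPR1 (4.07e-05) and −1.61 for ENO2 (0.00467). For the pyrimidine genes it was 0.90 for URA3 (0.117), 0.84 for URA1 (0.169), 0.80 for URA2 (0.146), 1.34 for FUI1 (0.0446) and −1.02 for FUR1 (0.0340). Without the 2 arrays lacking actin 5′ signal 14 probe sets passed, CDC42, ATG26, GPR1, ENO2, MRX3, GPM3, MEP2, YOR012W and TDH1 among them and FUI1 and FUR1 not (adjusted p = 0.299 and 0.270). That fit rests on 1 FAR1OE glucose array, which was assumed to vary like the other groups.

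**Figure D5:**
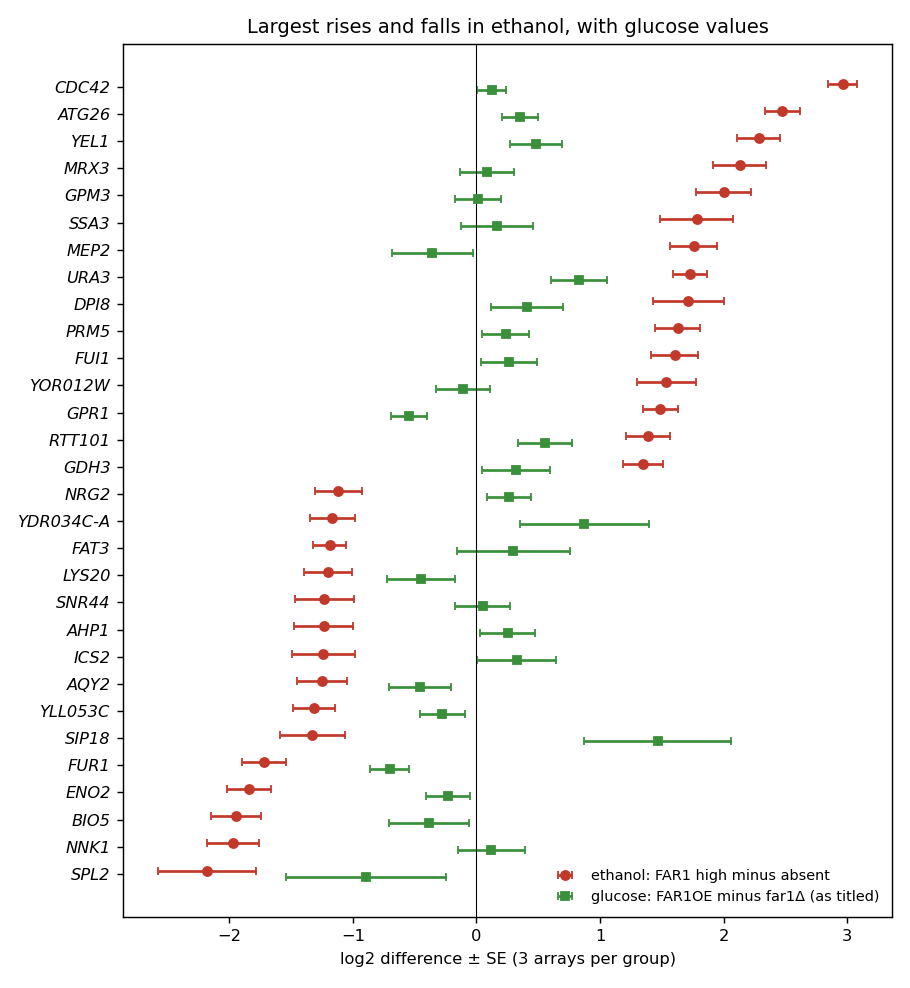
Log2 difference with its standard error for the 15 largest rises and 15 largest falls in ethanol (FAR1 high minus absent, red) and the same genes in glucose (FAR1OE minus far1Δ as titled, green), 3 arrays per group. CDC42 is at 2.96 in ethanol and 0.12 in glucose, and URA3 at 1.73 and 0.83.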

How the data were processed

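The authors deposited 1 table of linear intensities, with 9335 probe sets on 18 arrays. Per the submitters' processing notes it came from GCOS; neither version nor scaling is given in the sources used here, and the 2% trimmed means differ up to 2.2-fold between arrays. Genes were named from the platform annotation: 6504 probe sets had 1 gene, 328 several and 2443 none (60 were controls).

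Log2(intensity + 0.4) was quantile normalized over the 18 arrays. The pseudocount of 0.4 is the 10th percentile of all values and understates changes of low genes. Single-gene probe sets whose ethanol mean was above the 20th percentile were tested with limma 3.58.1 (R 4.3.3, eBayes with an intensity trend, Benjamini-Hochberg adjustment), FAR1 left out. The high against absent fit held the 9 ethanol arrays, and the fits for glucose and for the difference all 18. Each array is 1 culture, and their number limits the precision. The deposited scale, centred medians, a pseudocount of 2.9, no filter, 1 probe set per gene, other sets of arrays, no trend, a replicate block and leaving out each array were tried.

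The members and lists were chosen with earlier results of these data known. Named were the 3 markers, the 15 largest rises and 15 largest falls that passed, did not overlap and reached a mean intensity of 20 in the higher group, the passing members of each list (or those nearest), and a fixed set of cell cycle, growth and marker genes. SKT5, genes called in both carbon sources or of opposite sign in the replicate 3 pair, genes called without 2 glucose arrays, and those named by chromosome arm were named after their values were seen. Genes correlated with FAR1 over the arrays are not given, because the arrays fall into separate clusters of FAR1 signal. Genes with near-identical copies may share probe signal.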

Additional observations from a re-analysis of the deposited data

Results flagged for a closer look

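The following genes had a difference between the ethanol contrast (FAR1 high minus absent) and the glucose contrast (FAR1OE minus far1Δ as titled) that passed when the difference itself was tested in limma. The values are log2 differences of the 2 contrasts, over 3 arrays per group. CDC42 stood at 2.84 (adjusted p = 3.40e-08), ATG26 at 2.13 (4.07e-05), GPR1 at 2.04 (4.07e-05), GPM3 at 1.99 (9.98e-04) and MRX3 at 2.04 (0.00412). MEP2 stood at 2.12 (0.0321), YOR012W at 1.64 (0.0158) and ENO2 at −1.61 (0.00467). These 8 also passed without FAR1OE glucose replicates 1 and 3, the arrays lacking actin 5′ signal (adjusted p = 6.08e-07, 0.00141, 0.00218, 0.0136, 0.0340, 0.0213, 0.0340 and 0.00316).

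For 11 more genes the difference passed with all arrays and not without those 2. Among genes higher in ethanol these were YEL1 at 1.80 (adjusted p = 0.00680, and 0.163 without the 2 arrays), CAN1 at 1.77 (0.0158 and 0.214), SSA3 at 1.61 (0.0476 and 0.296), PRM5 at 1.39 (0.0205 and 0.228) and FUI1 at 1.34 (0.0446 and 0.299). Among genes lower in ethanol they were NNK1 at −2.09 (0.0158 and 0.183), AHP1 at −1.49 (0.0286 and 0.268), NRG2 at −1.38 (0.0157 and 0.199), SNR44 at −1.28 (0.0471 and 0.335), YLL053C at −1.04 (0.0473 and 0.269) and FUR1 at −1.02 (0.0340 and 0.270). The fit without the 2 arrays has 1 FAR1OE glucose array, and its part in the lost calls was not tested.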

How the results depend on the processing

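The count of 105 probe sets between FAR1 high and absent stayed within 1.5 times with centred medians (105), the larger pseudocount (110), no filter (101), 1 probe set per gene (104), all 18 arrays (91) and no trend (94). It was 66 on the deposited scale (50 of them among the 105), 65 with only the 6 arrays, 61 in labelled replicates 1 and 2, 0 with groups as labelled, and 49 to 113 without 1 array. The replicate block gave 82. The deviations of same-numbered high and absent arrays from their group means correlated at 0.184, −0.0629 and −0.295. These 3 values cannot decide whether same-numbered cultures shared a day or batch, which was not tested. For labelled replicates 1 and 2 the 61 calls became 36 on the deposited scale, 27 with the replicate block and 12 to 142 without 1 array. Groups as labelled gave 26 calls on the deposited scale and 0 to 40 without 1 array. The 338 glucose calls became 13 on the deposited scale, 9 without the 2 arrays lacking actin 5′ signal and 23 to 829 without 1 array. The 137 calls for the difference became 5, 14 and 26 to 718 in the same settings, and 66 with the replicate block. The share of equal sign in the replicate 3 pair was 63.9% on the deposited scale. With groups as labelled, AHP1 (0.02), NRG2 (0.07) and WSC2 (−0.02) changed sign; the cause was not tested beyond the titles themselves. Of the 58 named probe sets that passed, 33 passed without each array in turn, and 23 passed in every setting but groups as labelled. Signal near background limits the genes at single-digit intensities, such as BIO5, SPL2 and NNK1 on the high arrays.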

Other observations

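The left arm of chromosome II held 9 higher calls among 95 tested probe sets (9.47%), beside 66 of 5202 over all arms. They were FUS3 with 2 probe sets, FUI1, SSA3, SKT5, YEL1, MRX3 and the Ty elements YBL005W-B and YBL100W-B. The Ty probe sets share sequence with other copies, so their place on this arm is by annotation only. The median log2 difference of the arm was −0.009, within the range of all arms (−0.095 to 0.189). The arm was picked out after its count was seen.

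Ty retrotransposon probe sets, which share sequence among element copies and cannot be told apart by locus, were higher at 4 listed loci. These loci were listed because they passed, and the Ty probe sets tested were not counted, so no general Ty rise follows. The log2 rise was 1.26 for YJR027W (adjusted p = 0.0196 in limma), 1.16 for YAR009C (0.00870), 0.88 for YBL005W-B (0.0484) and 0.73 for YBL100W-B (0.00773). DDR48, a DNA damage-responsive gene, rose by 1.28 and 0.87 in its 2 probe sets (adjusted p = 0.00265 and 0.00374). ALD2, an aldehyde dehydrogenase gene, rose by 1.33 (0.00106). More than 1 probe set was tested for 207 genes; 4 of these genes had several calls, and 0 had calls in opposite directions.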
